A study of Rattus norvegicus with 6 samples.

Results

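The genes described here are 10 transcription factor genes that mark the meninges and other embryonic mesenchyme, *Foxc1*, *Foxc2*, *Foxd1*, *Twist1*, *Twist2*, *Tbx18*, *Prrx1*, *Msx1*, *Msx2* and *Snai2*, and they were followed in polyA RNA-seq of cultured cortical neural progenitors of the rat. They were taken by symbol, and all 10 are listed, each at 1 locus, among the 17337 gene names of the tables. They were selected on their FPKM in these 4 libraries, so their levels and their differences between replicates are given as a description and no test was made. The cells came from the cortices of Sprague Dawley rat embryos at day 14 and were grown untreated with bFGF and EGF until after the second passage. Each of the 2 biological replicates, named A and B, gave, by the labels, 2 libraries, here called A1, A2, B1 and B2. The labels do not call the libraries of a pair technical, and they were taken as such here. Whether the libraries of a pair came from the same culture could not be checked, and every replicate mean and SD given here rests on this reading. The deposited table of B2 carries another run designation than those of A1, A2 and B1. The sources used here do not say how many embryos went into a replicate, and the Start-seq libraries of the same cells were not analysed here. Levels are in FPKM (fragments scaled to transcript length and library depth), so that levels of different genes can be set side by side.

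The meninges are the connective tissue sheets that cover the brain, and they develop from mesenchyme of the neural crest and the mesoderm that lies against the surface of the embryonic cortex. Forkhead (Fox), basic helix-loop-helix (Twist), homeobox (Msx, Prrx), T-box (Tbx) and zinc finger (Snai) proteins bind DNA and set the identity and movement of these mesenchymal cells. *Foxc1* is needed for the meninges to form over the forebrain, and *Msx1* and *Msx2* are known targets of bone morphogenetic protein (BMP) signals that are also used at the dorsal midline of the neural tube.

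As a measure of depth, coverage was divided by FPKM, where coverage is the mean number of reads over each base of the transcripts. The quotient was between 22.7 and 24.4 in A1, A2 and B1 and 6.83 in B2, which is 28.1% of the depth of B1. B1 and B2 carry the label of 1 replicate and were taken as a technical pair. Yet of the 10481 genes whose mean reached 1 FPKM, 5.41% differed 2-fold or more from B1 to B2, and 0.286% from A1 to A2. Results that rest on B2 are therefore also given without it. Neural progenitor markers were present in every library. *Sox2*, a transcription factor of neural progenitors, had 558 and 592 FPKM in A1 and A2 and 406 and 356 FPKM in B1 and B2. Of 13 progenitor genes, 10 were listed, each with its mean at 1 FPKM or more, and of these 0 were counted as higher in B, while *Hes5* and *Fabp7* were among those counted as higher in A.

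Promoter sequence is shown for the 3 members with the highest mean level, because they were higher together in replicate B. The place of *Foxc1* among them rests on B2, since without it *Twist1* had the higher mean, 35.3 against 21.8 FPKM. The window is the 250 bases before the annotated gene start in RefSeq on build GRCr8, which is not the build of the expression tables. It lies at chr14:77185552-77185801 on the plus strand for *Msx1*, at chr8:97559966-97560215 on the minus strand for *Tbx18* and at chr17:32844101-32844350 on the minus strand for *Foxc1*. Each is printed 5′ to 3′ along the gene's strand, and the capitals mark matches to the CCAAT box on either strand.
Msx1: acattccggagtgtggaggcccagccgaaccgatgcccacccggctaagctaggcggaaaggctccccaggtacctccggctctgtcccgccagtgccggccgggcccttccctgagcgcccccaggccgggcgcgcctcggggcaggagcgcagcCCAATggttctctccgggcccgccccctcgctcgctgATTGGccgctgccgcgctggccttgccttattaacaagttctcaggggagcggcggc
Tbx18: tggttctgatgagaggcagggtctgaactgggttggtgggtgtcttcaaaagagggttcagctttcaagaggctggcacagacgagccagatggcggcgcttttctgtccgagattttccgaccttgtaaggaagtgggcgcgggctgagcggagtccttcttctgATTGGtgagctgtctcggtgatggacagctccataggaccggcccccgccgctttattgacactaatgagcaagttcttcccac
Foxc1: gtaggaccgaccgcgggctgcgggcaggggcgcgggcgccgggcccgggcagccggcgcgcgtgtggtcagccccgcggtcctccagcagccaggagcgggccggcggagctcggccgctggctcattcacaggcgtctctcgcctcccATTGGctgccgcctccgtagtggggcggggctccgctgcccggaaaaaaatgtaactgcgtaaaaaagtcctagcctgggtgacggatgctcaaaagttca

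Sequences of this kind were found for 8 of the 10 members, and *Foxc2* and *Snai2* had none in the table used. The letters CCAAT (either strand) occurred at least once in all 8 windows, against 34% of 33469 windows of the same length and 35% of the 21842 windows of protein-coding genes. In *Msx1* they began 94 and 57 bases before the annotated start, in *Foxc1* 101 bases and in *Tbx18* 84 bases before it. E-boxes, the letters CANNTG to which Twist and Snai proteins are known to bind, were in 3 of 8 windows (*Foxd1*, *Tbx18* and *Msx2*) and in 65.5% of all windows. The E-box CAGGTG (either strand), which is among the CANNTG matches, was in the window of *Foxd1* alone and in 15.9% of all windows. TATAAA was in 0 of 8 and in 12.9% of all. The windows of the members were rich in G and C, with a median of 67.4% against 51.2% over all windows and 54% over protein-coding genes, and *Prrx1* was the lowest at 43.2%. They held a median of 25.5 CpG dinucleotides, against 5 over all windows. These matches describe the letters of the windows and do not show that a factor binds there.

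An FPKM above 0 was found for all 10 genes in each library, and the mean reached 1 FPKM for 9 of them. By the mean over replicates the order was *Msx1*, *Tbx18*, *Foxc1*, *Twist1*, *Prrx1*, *Foxd1*, *Twist2*, *Foxc2*, *Snai2* and *Msx2*, and the first was 88.2 times as high as the last. The order was the same in A1 and A2, where *Tbx18* was first. It was headed by *Msx1* in B1 and by *Foxc1* in B2. Among neighbours in this order, the difference of the means exceeded the larger of the 2 SDs for 1 of 9 pairs, *Prrx1* above *Foxd1*. *Twist1* was above *Prrx1* and *Snai2* above *Msx2* in each of the 4 libraries as well, although their mean differences were within the SD, which holds the distance between replicates A and B. The order among *Msx1*, *Tbx18*, *Foxc1* and *Twist1* differed between libraries.

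**Figure D1:**
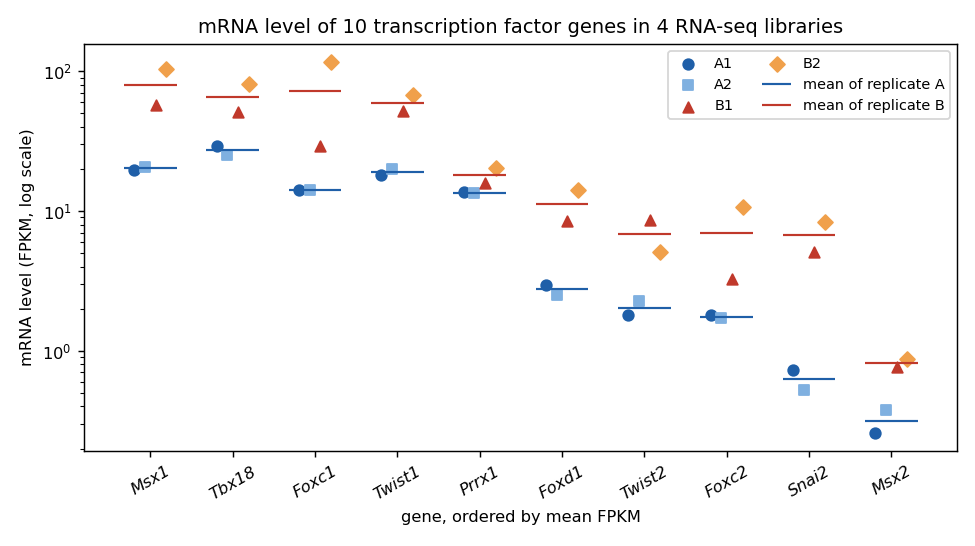
mRNA level in FPKM (log axis) of the 10 genes, ordered by mean, in libraries A1 and A2 of replicate A and B1 and B2 of replicate B. Points are single libraries and horizontal lines are the means of the 2 libraries of a replicate. For every gene both points of replicate B lie above both points of replicate A.

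In each of the 10 genes both libraries of replicate B were above both libraries of replicate A. The same was seen in 28.1% of the 10481 genes whose mean reached 1 FPKM, and the opposite in 32%. A gene was counted as differing when its mean was at least 1 FPKM, the libraries did not overlap and the replicates were at least 1 apart on the log2(FPKM + 1) scale. On this scale the change of a gene of low level comes out too small. Of the 10481 genes 6.2% were counted, 4.78% as higher in B and 1.42% as higher in A. Of the 10 members, 8 were counted, all of them as higher in B, while *Prrx1* was below the size required and *Msx2* below the level required. *Snai2* passed the level through replicate B alone, so it had to differ to be counted. Over all 10 members the median difference was 1.56 on the log2(FPKM + 1) scale, against -0.03 over the 10481 genes. In bulk RNA a larger share of cells of a type and more RNA per cell cannot be told apart.

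**Figure D2:**
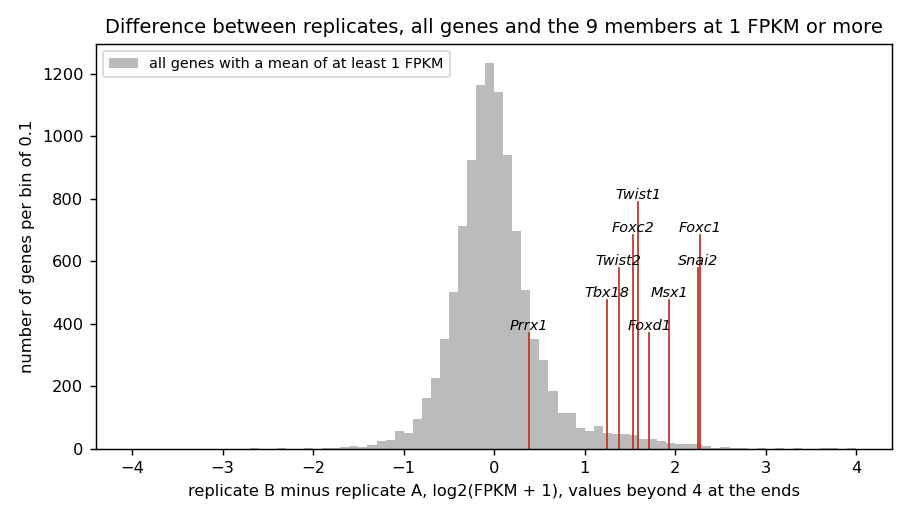
Number of genes whose mean reached 1 FPKM by their difference between replicate B and replicate A on the log2(FPKM + 1) scale (grey bars, bins of 0.1). Red lines mark the 9 members at this level, which lie from 0.39 for *Prrx1* to 2.28 for *Foxc1*, while the median of all genes is -0.03. The heights of the lines carry no value.

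The forkhead gene *Foxc1* is at chr17:33947501-33951484 (minus strand, rn6, as are the positions of the other members given here). Its level was 14.2 FPKM in A1, 14.1 in A2, 29.4 in B1, and it reached 115 in B2. The libraries of A were close to each other, and B2 stood far above B1. The mean was 43.3 ± 41.2 FPKM (SD, n = 2), and replicate B was 5.11-fold above A. Taken from B1 alone the level was 2.08-fold above A, so the size of the difference rests largely on B2. Without B2 its mean was 21.8 FPKM, and without B1 it was 64.7 FPKM. Of the 10481 genes, *Foxc1* took place 37 by the difference in favour of B, which was 2.28 on the log2(FPKM + 1) scale. Without B2 this difference was 1.003, so the place rests on B2 as well.

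Its paralogue *Foxc2*, known for its part in lymphatic vessels and axial mesenchyme, is at chr19:53044379-53047081 (plus strand). It had 1.79, 1.73, 3.24 and 10.7 FPKM in A1, A2, B1 and B2. As in *Foxc1*, B1 was above A and B2 well above B1. Replicate B was 3.97-fold above A with both libraries and 1.84-fold above A with B1 alone, and without B2 *Foxc2* was no longer counted as differing. *Foxc1* was 7.94 and 8.15 times as high as *Foxc2* in A1 and A2, and 9.06 and 10.8 times in B1 and B2, so that this ratio varied less between libraries than either level.

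*Foxd1*, a forkhead gene of stromal progenitors, is at chr2:28460068-28462488 (plus strand). The libraries A1 and A2 had 2.97 and 2.52 FPKM, and B1 and B2 had 8.48 and 14.1 FPKM. Both libraries of B were well apart from those of A. The mean was 7.02 ± 6.05 FPKM (SD, n = 2) and B was 4.11-fold above A, or 3.08-fold with B1 alone.

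*Twist1*, a basic helix-loop-helix gene of the cranial mesenchyme, is at chr6:53401241-53403234 (plus strand). It had 18.0 and 20.1 FPKM in the libraries of A, and 51.5 and 67.1 FPKM in B1 and B2. The groups were far apart, and the step from B1 to B2 was smaller than in *Foxc1*. The mean was 39.2 ± 28.5 FPKM (SD, n = 2), with B 3.12-fold above A.

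*Twist2*, its paralogue in the dermis and other mesenchyme, is at chr9:98924134-98968510 (plus strand). Its FPKM was 1.79 and 2.28 in the libraries of A, 8.63 in B1 and 5.11 in B2. It was the only member that was lower in B2 than in B1. Replicate B was 3.37-fold above A. The ratio of *Twist1* to *Twist2* was 10.03 and 8.82 in the libraries of A, 5.97 in B1 and 13.1 in B2, so that B1 and B2 gave the lowest and the highest of the ratios.

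*Msx1*, a homeobox gene, is at chr14:77712262-77716061 (plus strand). Its level was 19.8 and 20.7 FPKM in A1 and A2 and 57.0 and 103 FPKM in B1 and B2. The libraries of A were alike and those of B lay far above them. The mean was 50.1 ± 42.3 FPKM (SD, n = 2), and B was 3.96-fold above A, or 2.82-fold with B1 alone. By the mean *Msx1* ranked 2190 among all gene names.

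*Msx2* is at chr17:11683862-11689526 (plus strand) and was the lowest member. It had 0.260 and 0.375 FPKM in A1 and A2 and 0.764 and 0.873 FPKM in B1 and B2. The replicates did not overlap, with B 2.58-fold above A, and all 4 values were below 1 FPKM. The coverage behind these values was between 5.97 and 18.6 reads per base. *Msx1* was between 55.1 and 118 times as high as *Msx2* in the single libraries.

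*Tbx18*, a T-box gene of meningeal and mural cells, is at chr8:95359354-95387363 (minus strand). It had 29.1, 25.2, 51.1 and 80.5 FPKM in A1, A2, B1 and B2. It was the highest member in both libraries of A. The mean was 46.5 ± 27.3 FPKM (SD, n = 2) and B was 2.42-fold above A. With B1 alone it was 1.88-fold above A and was no longer counted as differing.

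*Prrx1*, a paired-type homeobox gene of limb and craniofacial mesenchyme, is at chr13:81147038-81214822 (minus strand). Its FPKM was 13.7 and 13.4 in the libraries of A, 15.9 in B1 and 20.2 in B2. It had the smallest fold between replicates among the members, with a mean of 15.8 ± 3.16 FPKM (SD, n = 2) and B 1.33-fold above A. The difference of 0.39 on the log2(FPKM + 1) scale was close to that of 0.32 between B2 and B1.

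*Snai2*, which encodes the zinc finger repressor Slug of the epithelial to mesenchymal transition, is at chr11:90404421-90406730 (minus strand). It had 0.726 and 0.523 FPKM in A1 and A2 and 5.13 and 8.32 FPKM in B1 and B2. The members' largest ratio of FPKM was found here, with B 10.8-fold above A and 8.22-fold with B1 alone. The coverage was 17.7 and 11.9 reads per base in A1 and A2, against 125 in B1 and 56.9 in B2.

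None of the 10 genes overlaps another gene of the tables on either strand. The nearest was *Gmds*, 9415 bp from *Foxc1*, with a mean of 16.7 FPKM in A and 33.0 FPKM in B. For the other members the nearest gene was at least 28646 bp away.

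**Figure D3:**
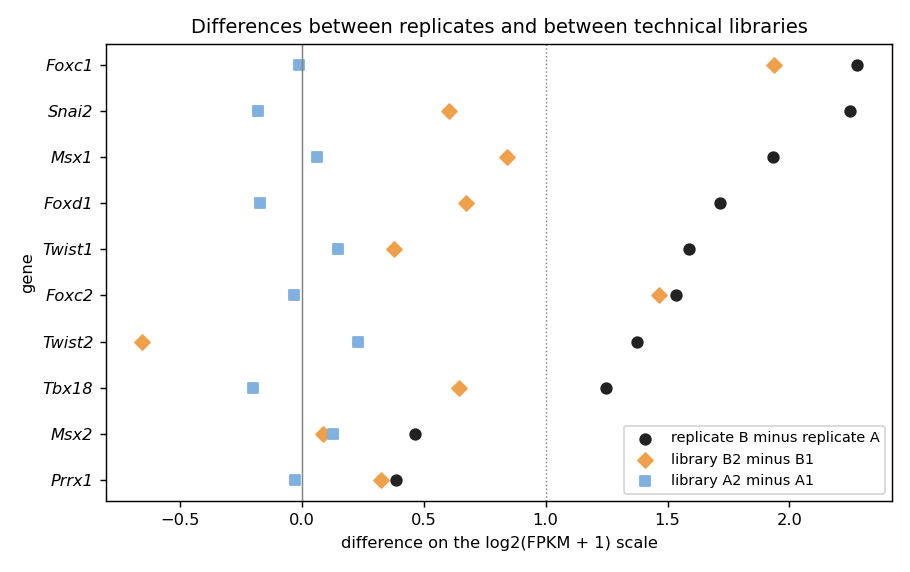
Differences on the log2(FPKM + 1) scale for the 10 genes between replicate B and A (black), between libraries B2 and B1 (orange) and between libraries A2 and A1 (light blue). The dotted line is the size of 1 required to count a gene as differing. The light blue points stay between -0.20 and 0.23, while the orange points reach 1.94 for *Foxc1* and -0.66 for *Twist2*.

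Within replicate A the 2 technical libraries gave like levels, and 0 of 10 members were 2-fold apart. Of the 10 members 4 were higher in A2 than in A1, as were 57.9% of all genes with a mean of 1 FPKM or more. Within replicate B, 9 of 10 members were higher in B2 than in B1, as were 49.1% of all genes at this level. *Foxc1* (3.93-fold) and *Foxc2* (3.31-fold) were at least 2-fold higher in B2, as were 3.95% of all genes at this level. The median step from B1 to B2 over the 9 members at 1 FPKM or more was 0.65 on the log2(FPKM + 1) scale. Over all genes at this level it was -0.01. Summed over the 10 members, the level was 102 and 101 FPKM in the libraries of A, 231 FPKM in B1 and 425 FPKM in B2.

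Other genes were described by lists of markers and pathways. Of 25 further transcription factors of mesenchyme, 22 were listed and 14 reached a mean of 1 FPKM. Of these 14, 12 were counted as higher in B and 0 as higher in A, with a median difference of 1.56. Without B2, 9 were counted, and *Alx4* and *Zic1* were among those lost. *Alx4* was among the genes that passed the level through replicate B alone and had to differ to be counted. *Osr1*, a zinc finger gene, had 17.1 and 17.8 FPKM in A1 and A2 and 53.8 and 120 FPKM in B1 and B2. *Prrx2*, the paralogue of *Prrx1*, had 2.76, 3.08, 15.1 and 18.7 FPKM, a difference of 2.19 against the 0.39 of *Prrx1*. *Zic1*, which neural cells use as well, was the highest of the list, with 59.9, 50.4, 84.9 and 184 FPKM. *Heyl* and *Nr2f2* were not counted.

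Structural and metabolic genes of mesenchyme and meninges were higher in B as well. Of 20 such genes 17 were listed, and all 17 were counted as higher in B, with a median difference of 2.04. Without B2, 13 were counted, and *Aldh1a2*, *Crabp2*, *Ptgds* and *Slc6a13* were lost. Their summed level was 1099 and 1101 FPKM in A1 and A2 and 3757 and 5303 FPKM in B1 and B2. From B1 to B2, 6 of the 17 were at least 2-fold higher, namely *Fn1*, *Aldh1a2*, *Crabp2*, *Ptgds*, *Slc6a13* and *Gjb2*. *Aldh1a2*, a retinoic acid synthesis gene of the meninges, had 58.3, 60.2, 71.2 and 369 FPKM in A1, A2, B1 and B2, a step of 2.36 between B1 and B2 on the log2(FPKM + 1) scale, beside 1.94 for *Foxc1*. *Pdgfra*, a receptor of fibroblast precursors, had 59.5 and 59.4 FPKM in B1 and B2 against 9.50 and 9.09 in A1 and A2, and *Postn*, a matrix gene, had 266 FPKM in B1 and 204 in B2. Some genes of the list, like *Twist2*, were thus not higher in B2 than in B1.

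**Figure D4:**
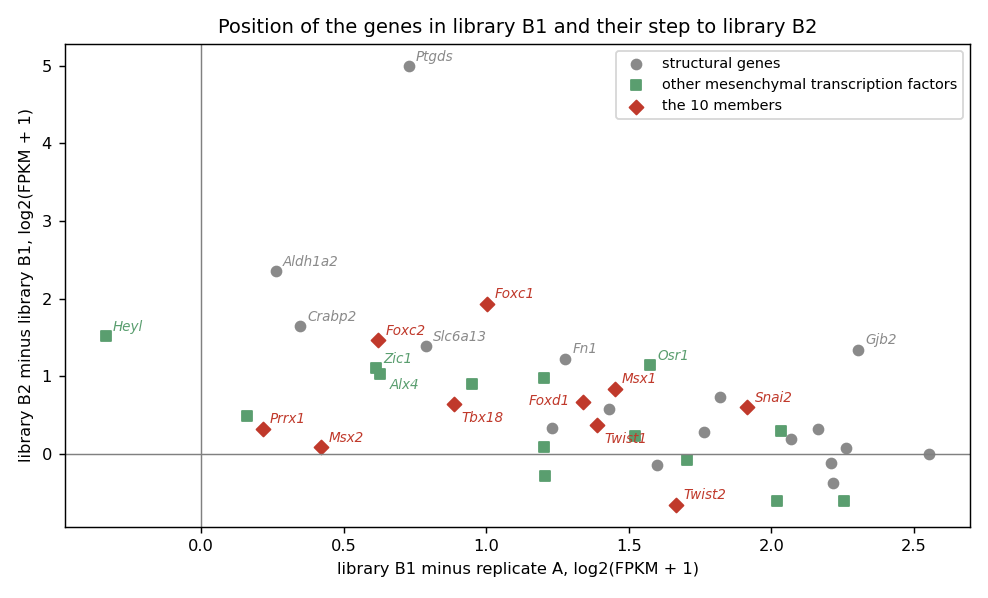
Difference of library B1 from replicate A (horizontal axis) and of library B2 from library B1 (vertical axis), both on the log2(FPKM + 1) scale, for the 10 members (red) and, where the mean reached 1 FPKM, the other mesenchymal transcription factors (green) and the structural genes (grey). *Foxc1* and *Foxc2* lie high on the vertical axis, with steps of 1.94 and 1.47, and *Twist2* lies at -0.66.

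Partners of the members, BMP signalling and the epithelial to mesenchymal transition were described next. The basic helix-loop-helix partners and inhibitors (*Tcf3*, *Tcf4*, *Tcf12* and the Id genes) were all at 1 FPKM or more, and 0 of 7 were counted in either direction, with a median difference of -0.01. *Tcf3*, a partner with which Twist proteins pair to bind DNA, had 146, 144, 157 and 166 FPKM, so it was well above *Twist1* in every library. Of 18 genes of BMP signalling 16 were at 1 FPKM or more, and *Bmp2*, *Bmp4*, *Bmp6*, *Bmp7* and *Smad6* were counted as higher in B. The median difference of the 16 was 0.33. Both libraries of B were above both of A in 8 of them, and the opposite was seen in 4. *Nog*, the highest gene of the list, had 64.7, 66.3, 52.4 and 163 FPKM in A1, A2, B1 and B2 and was not counted. *Bmp6* had 16.3, 15.5, 24.4 and 93.3 FPKM in A1, A2, B1 and B2 and was not counted without B2. *Bmp4* had 18.1 and 17.5 FPKM in A1 and A2 and 45.0 and 76.5 FPKM in B1 and B2. The receptors and the signalling Smads (*Smad1*, *Smad4* and *Smad5*) were not counted. Among the genes lower in B was the receptor *Bmpr2*, with 28.2, 22.0, 16.5 and 13.5 FPKM in A1, A2, B1 and B2. Of 7 genes of the epithelial to mesenchymal transition, *Snai1*, the paralogue of *Snai2*, and the mesenchymal cadherin *Cdh11* were counted as higher in B. The 5 genes of this list at 1 FPKM or more had a median difference of -0.18. Of these, 3 had both libraries of A above both of B, namely *Zeb1*, *Zeb2* and the cadherin *Cdh2*. *Snai1* had 8.58, 9.59, 19.6 and 28.2 FPKM. *Zeb1*, another repressor of epithelial genes, had 113 and 133 FPKM in A and 103 and 98.8 FPKM in B, and *Cdh1*, the epithelial cadherin, was at 0.140 FPKM or less in every library.

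Markers of other cell types were set beside the members, and their part in the result was not tested. Of 10 endothelial genes 9 had a mean below 1 FPKM, and *Pecam1* was between 0.185 and 0.451 FPKM. *Cdh5*, another endothelial gene, had 0.130, 0.126, 0.266 and 1.002 FPKM in A1, A2, B1 and B2. *Ramp2*, the highest gene of the list, had 128, 132, 74.4 and 177 FPKM. The endothelial list summed to 129.5, 132.7, 76.9 and 182 FPKM in A1, A2, B1 and B2, and without *Ramp2* to 1.29 and 1.11 FPKM in A and to 2.52 and 5.29 FPKM in B. Of 8 genes of microglia and macrophages 7 were below 1 FPKM, and *Ptprc* and *Cx3cr1* stayed at 0.0209 FPKM or less. Other genes of this list were low but higher in both libraries of B, such as *Aif1* with 0.273, 0.502, 0.898 and 1.204 FPKM and *C1qb* with 0.0438, 0.153, 0.533 and 0.733 FPKM in A1, A2, B1 and B2. *Cd68*, its highest gene, went the other way, with 5.68, 3.81, 3.29 and 2.51 FPKM. The list summed to 6.10, 4.90, 5.88 and 5.29 FPKM in A1, A2, B1 and B2, and without *Cd68* to 0.421 and 1.083 FPKM in A and to 2.59 and 2.78 FPKM in B. Of 10 mural genes *Acta2* and *Cnn1* were counted as higher in B, the latter not without B2. *Cnn1*, like *Tfap2a* of the neural crest list, passed the level through replicate B alone and had to differ to be counted. *Pdgfrb*, a receptor of mural cells, had 21.7, 17.6, 31.5 and 38.3 FPKM in A1, A2, B1 and B2, with both libraries of B above both of A, and was not counted. *Rgs5* was at 0.714 FPKM or less, and *Kcnj8* and *Abcc9*, which also mark pericytes, were at 0.0835 FPKM or less. Of the neural crest list *Tfap2a* and *Tfap2b* were counted as higher in B, and *Sox10* was between 0.0731 and 0.373 FPKM. Of 8 genes of bone and cartilage 3 were at 1 FPKM or more and 0 were counted. The summed level of the neural crest list was 31.9 to 33.7 FPKM in A and 54.6 to 81.3 FPKM in B, or 20.5 to 21.7 FPKM in A and 16.7 to 22.5 FPKM in B without *Tfap2b*. The summed level of the mural list was 732 to 831 FPKM in A and 674 to 1498 FPKM in B. Most of the mural sum was *Tagln*, a gene of smooth muscle, and without it the list summed to 37.3 and 37.8 FPKM in A1 and A2 and to 80.4 and 107 FPKM in B1 and B2.

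Neural and choroid plexus genes were described in the same way. The 10 neural progenitor genes had a median difference of -0.55, and 8 had both libraries of A above both of B. Without *Fabp7*, the highest gene, the list summed to 1550.0 and 1560.0 FPKM in A1 and A2 and to 967 and 885 FPKM in B1 and B2. *Hes5*, a target of Notch signals in progenitors, had 396.7 and 399.8 FPKM in A1 and A2 and 197 and 162 FPKM in B1 and B2. Of 6 choroid plexus genes 3 reached a mean of 1 FPKM, with *Ttr* and *Otx2* counted as higher in A and *Aqp1* as higher in B. *Otx2*, a homeobox gene, had 23.7, 22.4 and 16.8 FPKM in A1, A2 and B1 and was listed at 0 FPKM in B2, and it was not counted without B2. *Ttr*, which encodes the transthyretin of the choroid plexus, had 80.7, 82.6, 26.4 and 3.03 FPKM. Without *Ttr* the choroid plexus list summed to 26.4, 25.4, 24.5 and 12.1 FPKM. B1 was close to A in this sum because the lower *Otx2* was partly offset by a higher *Aqp1*. *Aqp1* had 1.78, 1.79, 7.04 and 11.4 FPKM in A1, A2, B1 and B2. *Ttr* and *Otx2*, too, were unlike between B1 and B2. In 5 neuronal genes at 1 FPKM or more, 0 were counted.

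**Figure D5:**
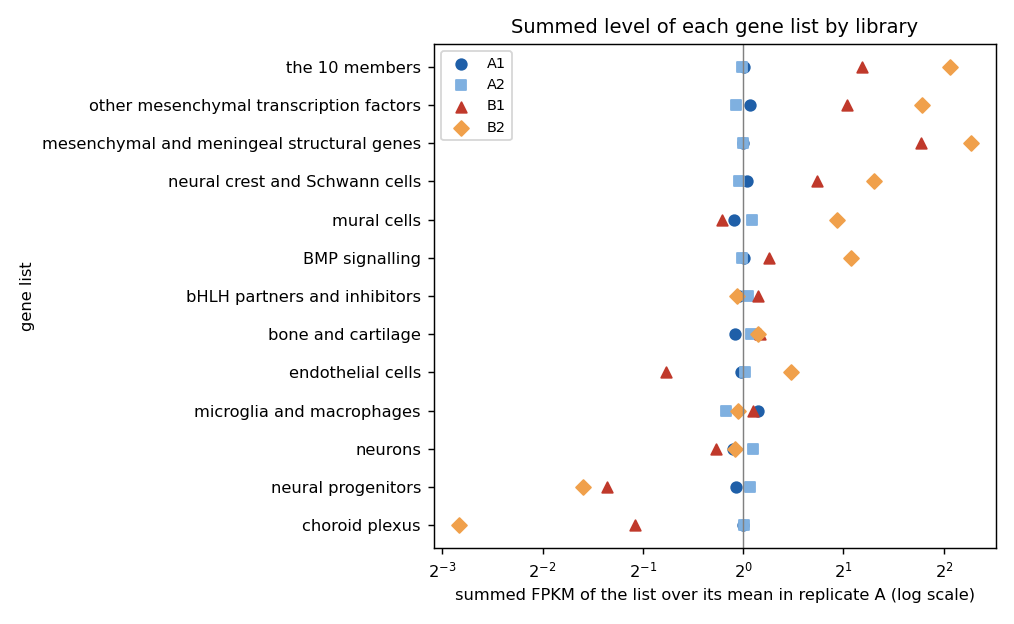
Summed FPKM of the gene lists, without that of the epithelial to mesenchymal transition, in each library, divided by the mean of A1 and A2 for the same list (log axis). Before this division the 10 members summed to 102 and 101 FPKM in A1 and A2, 231 in B1 and 425 in B2. In B1 and B2 the lists of other mesenchymal transcription factors and of structural genes lie to the right with them. Other lists also lie to the right in both libraries, but by less, such as those of the neural crest and of BMP signalling. The neural progenitor and choroid plexus lists, whose sums rest largely on *Fabp7* and *Ttr*, lie to the left.

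The genes whose profile over the 4 libraries was most like the mean profile of the 9 members at 1 FPKM or more were *Wwtr1*, *Col18a1*, *Lrrc32*, *Rcn3* and *Tpm2*. Likeness was measured as the root mean square distance between profiles centred on their mean on the log2(FPKM + 1) scale. The distance had a median of 0.82 over 10472 other genes. It was between 0.03 and 0.05 for the genes named, which were chosen for having the smallest distances. The 9 members themselves lay farther from their mean profile, from 0.10 for *Foxd1* to 0.58 for *Prrx1*. *Wwtr1*, which encodes the transcriptional coactivator TAZ, had 5.16, 5.03, 12.7 and 19.9 FPKM in A1, A2, B1 and B2. Profiles of single members were compared after their values had been seen. The gene nearest to *Msx1* was *Bmp7*, with 17.9, 18.9, 51.9 and 93.9 FPKM. The gene nearest to *Twist2* was *Pax1*, with 1.47, 1.79, 8.19 and 4.68 FPKM, which was also lower in B2 than in B1. The gene nearest to *Foxd1* was *Capn1*, and *Bmp4* was the next.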

How the data were processed

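PolyA-selected RNA of rat cortical neural progenitors was sequenced in 4 libraries, grouped by their labels into replicates A and B. Reads had been mapped by the authors with STAR on the rn6 genome, and they deposited gene tables in the layout of StringTie, whose versions are not given in the sources used here. The deposited FPKM values were used as such and added up where a name had several rows. The deposited TPM values served as an alternative, and the deposited coverage, the mean read depth of a gene, which is not scaled for library depth, gave the depth. The study's methods name other R packages than StringTie as the source of FPKM. Total read counts were not used, so no counting intervals are given.

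Technical libraries were averaged within a replicate, and mean and SD are over 2 biological replicates. With 1 condition no test between groups was made. Differences were taken as log2(FPKM + 1) of the replicate means, with a mean of at least 1 FPKM, a difference of at least 1 and no overlap required to count a gene. Members and lists were chosen with earlier results of these data known. The text names the members, the 5 genes nearest in profile, and list genes that were counted as differing or were the highest or lowest of a list, apart from items that are not reported here. Other list genes, such as *Sox2*, *Tcf3*, *Zeb1* and the low markers, and the genes nearest to single members were named after their values were seen. Alternatives were a pseudocount of 0.1, TPM, scaling of libraries by median ratios, other thresholds and each library left out. Promoter windows came from RefSeq (GRCr8). Python 3.11.15, pandas 2.3.3, numpy 2.4.6 and matplotlib 3.10.9 were used.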

Additional observations from a re-analysis of the deposited data

Results flagged for a closer look

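For 12 values (the 10 members, their sum and the depth) the distance of the highest or lowest of the 4 libraries from its neighbour was taken as a share of the whole range. Dixon's limit for outliers was passed by 3 of them, each in B2. *Foxc1* had 115 FPKM in B2, with a gap of 0.849 of the range. *Foxc2* had 10.7 FPKM in B2, with a gap of 0.832. The depth, as coverage per FPKM, was 6.83 in B2, with a gap of 0.906. For independent samples about 1 in 20 such values is flagged by chance, which does not hold for libraries that form technical pairs. The part of depth in the values of *Foxc1* and *Foxc2* was not tested.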

How the results depend on the processing

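Of 254 alternatives computed for 39 results, 0 turned a direction. In 232 the value moved by less than the spread between libraries or replicates or, for a count, stayed within 1.5 times. Only a difference could turn its direction, as counts, places and levels have none. A mean level cannot move beyond its SD when a whole replicate is left out, so those settings could not show a shift. The SD was also wide. Without B2 the mean of *Foxc1* fell from 43.3 to 21.8 FPKM, which was within its SD of 41.2. In each setting of the count of differing members, 0 members were higher in A and both libraries of B, or the one left, were above A in 10 of 10. The members counted as differing numbered 4 of 10 when a mean of 10 FPKM was required, which 5 reached, and between 6 and 8 with a library left out. The count was 6 without B2, when *Foxc2* and *Tbx18* were lost. All genes counted as differing numbered 650, against 331 when a mean of 10 FPKM was required and 1725 at a log2 difference of at least 0.58, where 57.8% were higher in B against 77.1%. This share was 66.9% without B2, and the count of all genes with a library left out was between 571 and 890. The median difference of the 9 members at 1 FPKM or more, 1.59, ranged from 1.34 to 2.01 with a library left out, the highest without B1. *Msx1* held place 1 or 2 among the members with a library left out and place 2 without replicate B, where *Tbx18* was first. Single members moved most without B2, where the difference of *Foxc1* was 1.003 and that of *Foxc2* 0.62, and with a pseudocount of 0.1, where that of *Snai2* was 3.24 and that of *Msx2* 1.14. Taking log2 per library before averaging, chosen after seeing the data, left the count of members at 8. The gene lists without B2 were also added after seeing the data, and the count of differing genes moved by over 1.5 times for the mural list, from 2 to 1. For these shifts the cause was not tested. No paired analysis was possible because the shared numbers 1 and 2 were taken to mark technical libraries, and no test was made. The depth of B2 limits its lowest values, such as *Msx2* at a coverage of 5.97.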
